A study of Mus musculus with 12 samples.

Results

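The 9 genes described here control the start of blood clotting and the activation of plasminogen: F3, Plau, Plaur, Plat, Thbd, Procr, Tfpi, F2r and Vwf. They were chosen by gene name on one-colour Agilent microarrays, where 16 of 56605 probes carry one of these names. Of these, 15 passed the filter on dim probes, and all 9 genes were represented among the 25948 genes fitted. Expression was measured in 12 kidneys of male mice on a C57/6J background, in 4 groups of 3 that the series text calls independent samples. Wild-type (WT) animals had either a sham operation or bilateral renal ischemia-reperfusion injury (IRI), and animals with the Jaml gene knocked out (KO) had the same pair of treatments. JAML is a junctional adhesion molecule-like protein of immune and epithelial cells. IRI means that blood flow to the kidneys was stopped and then restored. The labels give 24 h after IRI, and the sources name 30 min in one place and 40 min in another for the closure. The sources used here give no mouse ages, and they do not say how the Jaml allele was made or which cells it affects.

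Clotting begins when blood meets tissue factor, the product of F3, which binds factor VII and leads to thrombin. Thrombin signals to cells through the receptor encoded by F2r, and it is turned to an anticoagulant role by thrombomodulin (Thbd) together with the endothelial protein C receptor (Procr). Fibrin is removed by plasmin, which is released from plasminogen by urokinase (Plau), held at the cell surface by its receptor (Plaur), and by tissue plasminogen activator (Plat). In the kidney, tubule cells are a known source of urokinase, glomerular cells carry tissue factor, and endothelium makes thrombomodulin and tissue plasminogen activator.

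Levels are log2 processed intensities on which the 75th percentile of each array is 0, and they compare groups for 1 probe, not different genes. Between 35598 and 38526 probes per array were well above background, no spot was saturated, and the probe used for each of the 9 genes was well above background on 12 of 12 arrays. All 6 proximal tubule markers and all 6 podocyte markers were well above background on 12 arrays. The summed T and NK cell marker level, in units of the array's 75th percentile, was 22.8 and 23.0 in WT sham replicates 1 and 2. It was 2.5 in WT sham replicate 3. In WT IRI it was 0.93 to 1.31, in KO sham 1.09 to 2.37 and in KO IRI 0.66 to 0.83. WT sham replicates 1 and 2 thus stood above every other kidney in these markers. WT sham replicate 3 in turn had the highest summed neutrophil marker level of its group, at 89.6 against 60.3 and 64.6. Its summed injured tubule marker level was 12.6, against 9.6 and 8.0. WT IRI replicate 1 stood farthest from its group, with a root mean square deviation of 0.579 on the log2 scale against 0.205 to 0.433 for the other arrays. All WT arrays lay on slide 1 and all KO arrays on slide 2, so slide and genotype cannot be told apart where KO is set against WT. Each comparison of IRI with sham lies within 1 slide. Jaml itself ranged from -0.44 to -0.26 in WT sham kidneys and from -3.54 to -2.59 in KO sham kidneys. After IRI the Jaml ranges were -1.80 to 0.55 in WT and -3.0 to -1.89 in KO, which come close without overlap, and the sources used here do not say whether the probe lies in the deleted part.

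In WT kidneys IRI raised 3 of the 9 genes, F3, Plaur and Procr, at a limma adjusted p under 0.05, and lowered 0, while 5 of 9 passed an unadjusted 0.05. At the adjusted threshold 6.07% of all genes were called higher and 12.0% in either direction. The median log2 change of the 9 was 0.64, against -0.01 over all genes. In KO kidneys limma called 0 of 9 between IRI and sham, and over all genes it called 6.17%. At an unadjusted p under 0.05 there were 6 of 9 in KO. The share of all genes at that unadjusted threshold is not given, here or below. Counts at it thus have no background to be read against. The median of the 9 in KO was 0.57, against -0.08 over all genes. The 3 IRI arrays lay wholly above the 3 sham arrays for 5 of 9 genes in WT, where 17.2% of all genes did so. In KO this held for 6 of 9, against 13.9% of all genes.

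**Figure D1:**
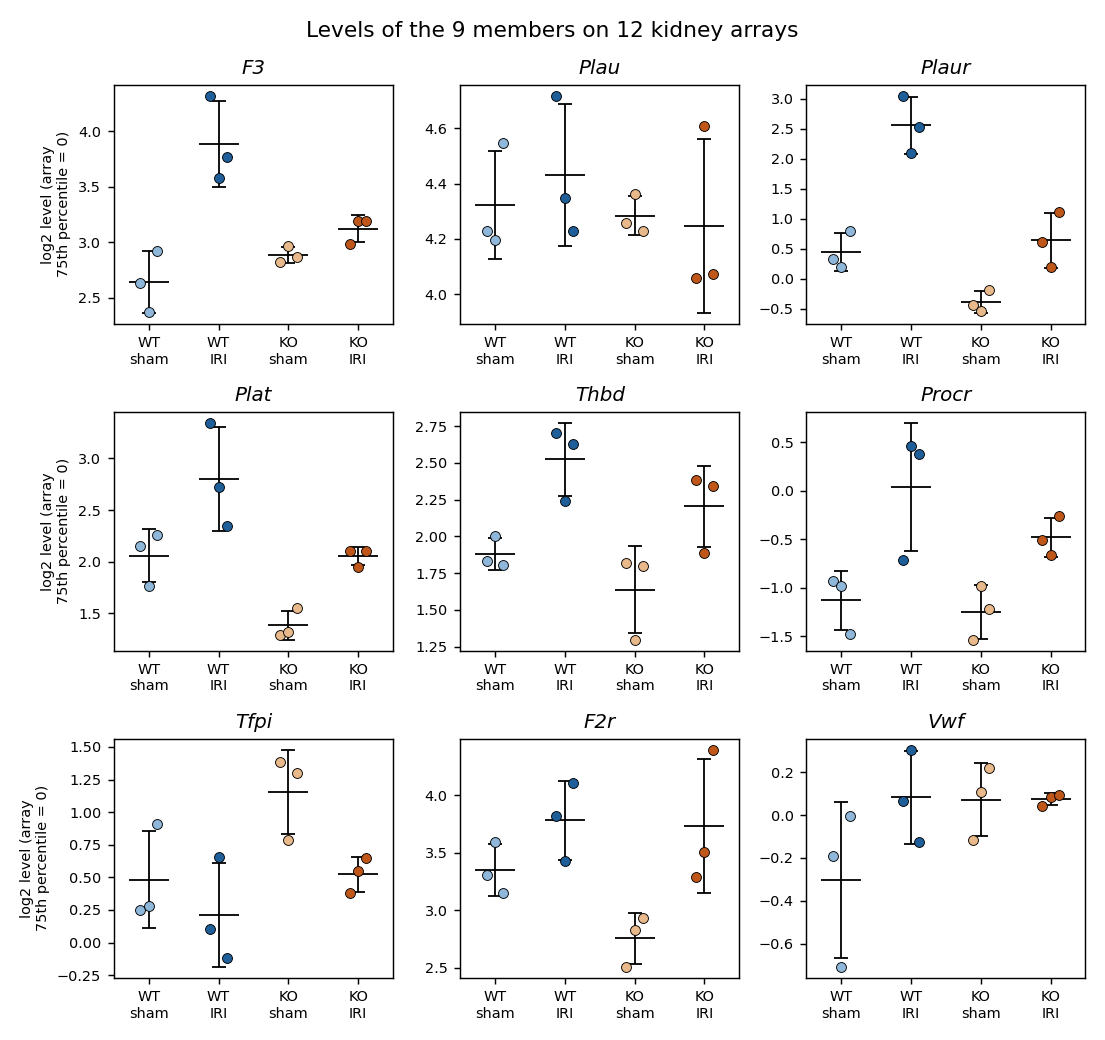
Log2 level (75th percentile of the array = 0) of each of the 9 genes on the 12 arrays, by group; each point is 1 kidney, the long bar is the group mean and the whiskers are 1 SD (n = 3). F3 and Plaur in WT IRI kidneys lie above every other group, and Plau overlaps among the 4 groups.

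F3 encodes tissue factor, the membrane protein that starts clotting. Its probe matches the F3 transcript at chr3:121437717-121437776 (mm9, plus strand). In WT sham kidneys F3 was at 2.63, 2.37 and 2.93, and in WT IRI kidneys it was at 4.32, 3.57 and 3.76. In KO sham kidneys it was at 2.82, 2.97 and 2.86, and in KO IRI kidneys it was at 2.98, 3.19 and 3.19. All 3 WT IRI kidneys were above every other kidney, and the KO groups were separated by a small gap. F3 rose 2.37-fold in WT (log2 change 1.24 ± 0.20, SE, limma adjusted p = 0.00642). The log2 change in KO was 0.24 ± 0.20 (adjusted p = 0.547). Without WT IRI replicate 1 the WT change was 1.03 (adjusted p = 0.00581). When the fit held the 6 WT arrays alone its adjusted p was 0.0711.

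Plaur encodes the urokinase receptor, which holds urokinase on the surface of leukocytes, endothelium and epithelium. Its probe lies at chr7:25260569-25260628 (mm9, plus strand). Plaur was at 0.33, 0.19 and 0.80 in WT sham kidneys and at 3.05, 2.10 and 2.53 in WT IRI kidneys. It was at -0.43, -0.54 and -0.18 in KO sham kidneys and at 0.61, 0.20 and 1.12 in KO IRI kidneys. The KO IRI kidneys reached the range of the WT sham kidneys, and the WT IRI kidneys were apart from the rest. Plaur rose 4.34-fold in WT (log2 change 2.12 ± 0.29, adjusted p = 0.00325), and this call held under each of 24 alternative settings, with changes between 1.87 and 2.35. Among these settings, slide as a block repeats the main fit, since each slide holds a single genotype. In KO the log2 change was 1.02 ± 0.29, a 2.03-fold difference whose adjusted p of 0.0653 missed the threshold, although the groups did not overlap. That p fell to 0.0307 without WT IRI replicate 1, which enters this comparison through the shared spread, and to 0.0478 without WT IRI replicate 2.

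Markers of cells that can carry the urokinase receptor were measured beside Plaur, and they did not all go the same way. As background, 12.0% of all genes were called in either direction in WT and 6.17% in KO. Of 6 neutrophil markers, 4 were called higher and 1 lower in WT IRI, and 2 were called higher in KO IRI; Cxcr2 among them was well above background on 7 of 12 arrays. The summed neutrophil marker level was 60.3 to 89.6 in WT sham, 111.3 to 121.2 in WT IRI, 58.7 to 77.3 in KO sham and 42.1 to 73.9 in KO IRI. The mean log2 level of the 6 neutrophil markers, each centred on its mean over the 12 arrays, was -0.86 to 0.93 in WT sham, 1.87 to 2.24 in WT IRI, -2.30 to -1.16 in KO sham and -0.58 to 0.51 in KO IRI. In KO the centred mean was thus higher after IRI without overlap, while the sum was not. Of 6 macrophage and monocyte markers, 1 was called higher and 2 lower in each genotype. The summed level of these 6 markers was 266.2 to 296.0 in WT sham, 179.4 to 274.9 in WT IRI, 165.9 to 189.7 in KO sham and 127.5 to 157.0 in KO IRI. Of 5 injured tubule markers, 3 were called higher in each genotype. Their summed level was 8.0 to 12.6 in WT sham, 121.9 to 354.2 in WT IRI, 2.3 to 3.1 in KO sham and 53.9 to 106.9 in KO IRI. Neutrophil and injured tubule sums were higher in WT IRI than in WT sham, and macrophage sums overlapped in WT and were lower after IRI in KO. The centred mean of the 6 macrophage and monocyte markers went otherwise. It was 0.25 to 0.63 in WT sham and -0.27 to 0.09 in WT IRI, without overlap. In KO it was -0.35 to 0.20 in sham and -0.49 to 0.01 after IRI, with overlap. The part of any of these cells in the F3 and Plaur results was not tested, and in whole kidney a change in the number of cells and in RNA per cell cannot be told apart.

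Procr encodes the endothelial protein C receptor, which presents protein C to the thrombin-thrombomodulin complex. Its probe lies at chr2:155580945-155581004 (mm9, plus strand). Procr was at -0.93, -0.98 and -1.48 in WT sham kidneys and at -0.72, 0.46 and 0.38 in WT IRI kidneys. It was at -1.54, -0.98 and -1.22 in KO sham kidneys and at -0.51, -0.67 and -0.26 in KO IRI kidneys. WT IRI replicate 1 lay close to the sham arrays and the other WT IRI replicates were well above them, while the KO IRI arrays sat together above KO sham. Procr rose 2.25-fold in WT (log2 change 1.17 ± 0.30, adjusted p = 0.0334). The change in KO was 0.77 ± 0.30 (adjusted p = 0.179), with an adjusted p of 0.0319 without WT IRI replicate 1. Of the 3 WT calls, that of Procr had the highest adjusted p. Leaving out WT sham replicate 1, 2 or 3 gave an adjusted p of 0.0780, 0.0819 and 0.0938, and leaving out WT IRI replicate 2 or 3 gave 0.0660 and 0.105. Leaving out KO sham replicate 3 gave 0.0540, and without WT IRI replicate 1 the change was 1.55 (adjusted p = 0.00333).

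The promoter windows of the 3 genes called in WT IRI are shown because these genes moved in the same direction. They run from 250 bases before to 50 bases after the annotated start, from RefSeq on GRCm38.p6, 5′ to 3′ on the gene's strand. The windows are chr3:121723287-121723586 (plus) for F3, chr7:24462233-24462532 (plus) for Plaur and chr2:155750967-155751266 (plus) for Procr. Capitals mark matches to the AP-1 motif TGANTCA or the Sp1 motif GGGCGG on either strand.
F3: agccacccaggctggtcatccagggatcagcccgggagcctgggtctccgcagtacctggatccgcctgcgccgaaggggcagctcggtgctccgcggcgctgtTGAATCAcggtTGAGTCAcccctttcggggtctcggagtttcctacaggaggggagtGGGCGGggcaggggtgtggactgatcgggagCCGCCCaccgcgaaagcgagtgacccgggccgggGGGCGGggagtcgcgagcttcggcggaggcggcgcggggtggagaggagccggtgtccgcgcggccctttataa
Plaur: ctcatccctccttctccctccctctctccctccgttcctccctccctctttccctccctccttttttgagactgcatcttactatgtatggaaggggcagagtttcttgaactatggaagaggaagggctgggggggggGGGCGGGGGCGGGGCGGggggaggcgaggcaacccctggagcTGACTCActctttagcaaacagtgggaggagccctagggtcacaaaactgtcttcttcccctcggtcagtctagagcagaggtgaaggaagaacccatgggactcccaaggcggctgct
Procr: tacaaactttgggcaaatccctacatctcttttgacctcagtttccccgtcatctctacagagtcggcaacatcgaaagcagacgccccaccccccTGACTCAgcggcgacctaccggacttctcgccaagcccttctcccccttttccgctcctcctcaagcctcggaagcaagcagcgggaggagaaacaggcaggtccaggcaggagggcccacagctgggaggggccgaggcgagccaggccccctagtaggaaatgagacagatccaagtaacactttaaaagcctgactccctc
With the start base as 0, the F3 window holds AP-1 matches at -146 to -140 (TGAATCA) and -135 to -129 (TGAGTCA) and 3 Sp1 matches. The Plaur window holds 1 AP-1 match (TGACTCA) at -69 to -63 and 3 Sp1 matches, the last pair of which overlap by 1 base. In Procr there is 1 AP-1 match (TGACTCA) at -154 to -148. Over 32851 RefSeq windows of this length, 7.81% hold the AP-1 motif and 35.7% the Sp1 motif. The STAT motif TTCNNNGAA and the NF-kB motif were searched as well, are in 8.30% and 5.81% of all windows, and are not among the letters of these 3. The tables hold windows for 5 of the 9 genes; of the others, F2r has 1 AP-1 and 1 Sp1 match, and each of the 2 Tfpi windows has 1 Sp1 match. These are letter matches, not measured binding.

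Neither plasminogen activator passed the test after IRI. Plau encodes urokinase, and its probe lies at chr14:21662487-21662546 (mm9, plus strand). Plau was at 4.23, 4.19 and 4.55 in WT sham, at 4.72, 4.35 and 4.23 in WT IRI, at 4.26, 4.36 and 4.23 in KO sham and at 4.06, 4.61 and 4.07 in KO IRI. The 4 groups overlapped. Plau's log2 change after IRI was 0.11 ± 0.19 in WT (95% interval -0.30 to 0.52, adjusted p = 0.746) and -0.04 ± 0.19 in KO (-0.45 to 0.38, adjusted p = 0.936), so a change of the size seen for Plaur in WT lies outside both intervals. A second Plau probe, across an exon junction, gave -0.08 and -0.03.

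Plat encodes tissue plasminogen activator; its probe lies at chr8:23892531-23892590 (mm9, plus strand). Plat was at 2.15, 1.77 and 2.25 in WT sham and at 3.35, 2.72 and 2.35 in WT IRI. It was at 1.29, 1.32 and 1.55 in KO sham and at 2.11, 1.95 and 2.10 in KO IRI. IRI arrays were above sham arrays in each genotype, and each KO group was below the WT group of the same treatment, without overlap in any of these comparisons. The log2 change after IRI was 0.75 ± 0.23 in WT (adjusted p = 0.0606), against 0.67 ± 0.23 in KO (adjusted p = 0.125), and neither passed. Without WT IRI replicate 1 these were 0.48 (adjusted p = 0.0987) and 0.67 (adjusted p = 0.0248). Without WT IRI replicate 3 the WT change was 0.98 (adjusted p = 0.0386). The groups did differ as a set of 4, with a limma F test adjusted p of 0.0102 for Plat. A dimmer second Plat probe at chr8:23886301-23886360 gave 1.36 ± 0.35 in WT and 0.01 ± 0.35 in KO, so the 2 probes do not give the same picture in KO.

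**Figure D2:**
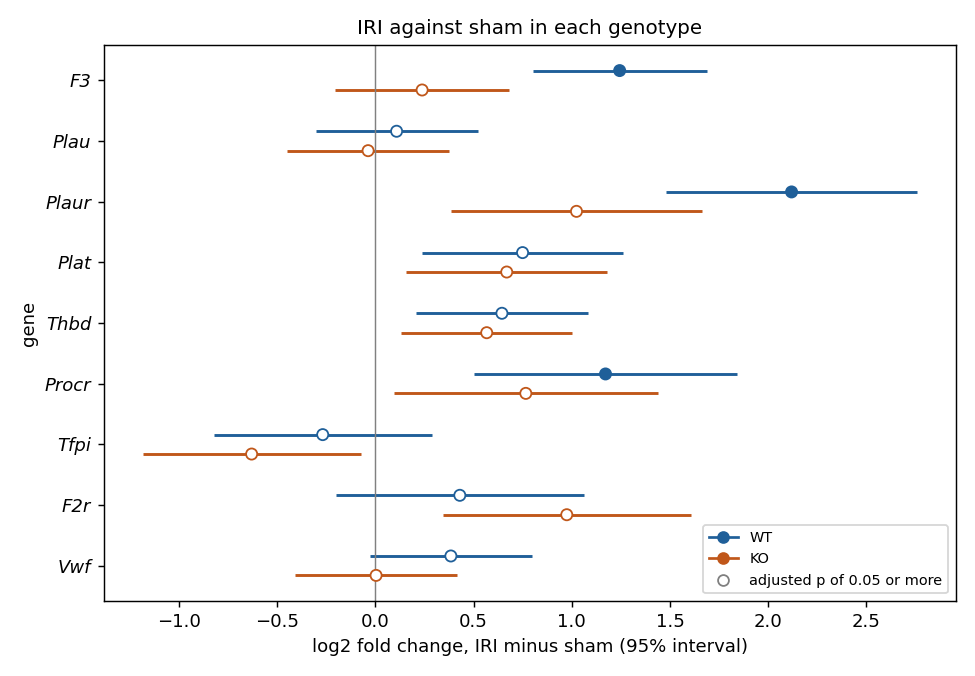
Log2 fold change of IRI against sham for each gene in WT (blue) and KO (orange), with 95% intervals from limma; filled points passed an adjusted p of 0.05. F3, Plaur and Procr passed in WT, at 1.24, 2.12 and 1.17, and the KO values of the 3 genes were 0.24, 1.02 and 0.77.

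Thbd encodes thrombomodulin, the endothelial cofactor that redirects thrombin to protein C. Its probe lies at chr2:148230235-148230294 (mm9, minus strand). Thbd was at 1.83, 2.00 and 1.80 in WT sham, at 2.71, 2.24 and 2.63 in WT IRI, at 1.82, 1.30 and 1.80 in KO sham and at 2.38, 1.88 and 2.34 in KO IRI. In each genotype the IRI arrays were above the sham arrays without overlap. The log2 change was 0.64 ± 0.20 for WT (adjusted p = 0.0590) and 0.57 ± 0.20 for KO (adjusted p = 0.128), short of the threshold in each. The WT p was 0.0296 without WT IRI replicate 2 and 0.0471 without KO sham replicate 2. The F test over the 4 groups passed (adjusted p = 0.0296).

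Thbd, Procr and Vwf are genes of endothelium, and a list of 13 other endothelial markers was measured in full. In WT IRI against sham, 0 of 13 were called higher and 1, Ehd3 of glomerular endothelium, was called lower (log2 change -0.98, adjusted p = 0.0170). In KO limma called 0 of 13, with 2 at an unadjusted p under 0.05. Of all genes 12.0% were called in either direction in WT and 6.17% in KO. The summed endothelial level was 94.2 to 104.8 in WT sham, 77.1 to 101.0 in WT IRI, 105.7 to 113.6 in KO sham and 105.8 to 116.0 in KO IRI. The summed marker level in WT IRI arrays overlapped that in WT sham arrays. The part of endothelial cells in the Procr and Thbd values was not tested.

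Tfpi encodes the plasma inhibitor of the tissue factor and factor VII complex. The probe used, at chr2:84273055-84273114 (mm9, minus strand), was at 0.25, 0.28 and 0.91 in WT sham, 0.11, 0.65 and -0.12 in WT IRI, 1.38, 0.78 and 1.30 in KO sham and 0.38, 0.55 and 0.65 in KO IRI. The KO IRI arrays lay below the KO sham arrays, the only gene of the 9 whose IRI arrays were wholly lower, where 21.8% of all genes were. Tfpi's log2 change was -0.27 ± 0.25 in WT (adjusted p = 0.518), against -0.63 ± 0.25 in KO (adjusted p = 0.181). The other 2 probes kept for Tfpi gave -0.48 and -0.41 in KO, and in each the KO IRI arrays overlapped the KO sham arrays.

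F2r encodes protease-activated receptor 1, the main thrombin receptor of many cells. Its probe, at chr13:96371902-96371961 (mm9, minus strand), was at 3.31, 3.59 and 3.15 in WT sham, 3.82, 3.42 and 4.11 in WT IRI, 2.51, 2.83 and 2.93 in KO sham and 3.29, 3.51 and 4.39 in KO IRI. KO IRI arrays lay above KO sham arrays without overlap, and the WT groups overlapped. The F2r change was 0.43 ± 0.28 in WT (adjusted p = 0.348), against 0.97 ± 0.28 in KO (adjusted p = 0.0738). Vwf encodes von Willebrand factor, stored in endothelium and platelets, which tethers platelets to damaged vessels. At chr6:125636551-125636610 (mm9, plus strand) it was at -0.19, -0.71 and -0.01 in WT sham, 0.07, 0.31 and -0.12 in WT IRI, -0.11, 0.11 and 0.22 in KO sham and 0.04, 0.09 and 0.10 in KO IRI. Vwf groups overlapped, with changes of 0.38 ± 0.19 in WT (adjusted p = 0.203), against 0.00 ± 0.19 in KO (adjusted p = 0.995).

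KO was then set against WT at each treatment. In sham kidneys limma called 0 of 9 genes, where 8.86% of all genes were called, and 3 of the 9 had an unadjusted p under 0.05. The 3 nearest differences were Plaur at -0.82 ± 0.29 (adjusted p = 0.106), Plat at -0.67 ± 0.23 (adjusted p = 0.100) and Tfpi at 0.67 ± 0.25 (adjusted p = 0.126). KO sham arrays were wholly below WT sham arrays for Plaur, Plat and F2r, 3 of 9, against 12.2% of all genes. Without WT IRI replicate 1, which enters this comparison through the shared spread, Plat passed at an adjusted p of 0.0205. After IRI, 1 of 9 was called lower in KO and 0 higher, where 1.02% of all genes were called lower and 1.93% in either direction. That gene was Plaur, 3.78-fold lower (log2 difference -1.92 ± 0.29, adjusted p = 0.0125). The median difference of the 9 was -0.32, against 0.04 over all genes, and 8 of 9 were negative.

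KO IRI arrays were wholly below WT IRI arrays for F3, Plaur and Plat, 3 of 9, against 9.47% of all genes. F3 was among them, with a log2 difference of -0.76 ± 0.20 that did not pass (adjusted p = 0.0823). Without WT IRI replicate 2 it was -0.92 (adjusted p = 0.0456), and without WT IRI replicate 1 it was -0.55 (adjusted p = 0.113). Plat stood at -0.75 ± 0.23 (adjusted p = 0.115) and Procr at -0.52 ± 0.30 (adjusted p = 0.334). The Plaur difference held in 22 of 23 alternatives, from -2.16 to -1.67, and its adjusted p was 0.130 with the 6 IRI arrays alone. The neutrophil sums given above were 111.3 to 121.2 in WT IRI and 42.1 to 73.9 in KO IRI, the centred means 1.87 to 2.24 and -0.58 to 0.51, and 2 of 6 neutrophil markers were called lower in KO IRI. Of all genes 1.02% were called lower in KO IRI than in WT IRI. The injured tubule sums lay apart as well, at 121.9 to 354.2 in WT IRI and 53.9 to 106.9 in KO IRI. All 5 injured tubule markers were lower in KO IRI, and limma called 0. Macrophage and monocyte sums were 179.4 to 274.9 and 127.5 to 157.0 in the same order. Of these 6 markers, 3 were lower in KO IRI and 0 were called, and their centred means overlapped. The part of any of these cells in the Plaur difference was not tested. Genotype and slide cannot be told apart in each of these values.

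**Figure D3:**
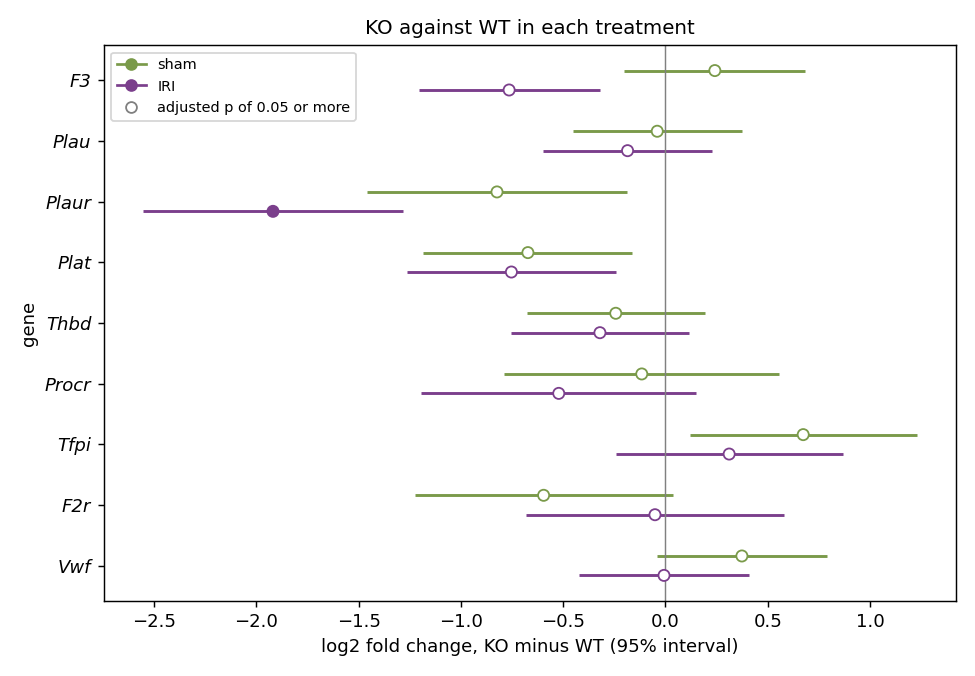
Log2 fold change of KO against WT for each gene in sham (green) and IRI (purple) kidneys, with 95% intervals from limma; filled points passed an adjusted p of 0.05. Plaur after IRI, at -1.92, is the filled point, and F3 after IRI is at -0.76.

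Whether the response to IRI differed between genotypes was tested directly, as the KO response minus the WT response, in which a slide effect cancels. Limma called 0 of 9 genes and 0.0694% of all genes, and 2 of the 9 had an unadjusted p under 0.05. F3 had a difference of -1.01 ± 0.28 (95% interval -1.63 to -0.38, unadjusted p = 0.00495, adjusted p = 0.325). For Plaur it was -1.09 ± 0.41 (unadjusted p = 0.0220, adjusted p = 0.433). Neither passed the threshold over all genes tested. For Plat and Thbd the differences were -0.08 ± 0.33 (adjusted p = 0.944) and -0.08 ± 0.28 (adjusted p = 0.936). The dimmer second Plat probe gave -1.35 ± 0.50, and with the mean of the Plat probes the difference was -0.71. The responses of the 2 genotypes rest on separate arrays.

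The regulators of fibrinolysis around these genes were also measured. Of 10 listed, 8 were kept, and Plg, which encodes plasminogen, and Serpinb2 were not. In WT IRI 3 of 8 rose and 1 fell, and in KO IRI 2 rose and 2 fell, with medians of 0.32 and 0.39. Over all genes 12.0% were called in either direction in WT and 6.17% in KO, with medians of -0.01 and -0.08. Serpine2, which encodes a thrombin and urokinase inhibitor, rose by 0.66 ± 0.14 in WT (adjusted p = 0.0163), against 0.78 ± 0.14 in KO (adjusted p = 0.0121). S100a10 and Anxa2 encode the 2 subunits of a plasminogen-binding complex at the cell surface. S100a10 rose by 1.20 ± 0.20 in WT (adjusted p = 0.00831), against 1.16 ± 0.20 in KO (adjusted p = 0.0119). Anxa2 rose by 1.05 ± 0.23 in WT (adjusted p = 0.0184) and was 0.41 in KO (adjusted p = 0.336). Serpinf2, which encodes the plasmin inhibitor alpha-2-antiplasmin, fell by 0.91 in WT (adjusted p = 0.0285) and fell by 1.28 in KO (adjusted p = 0.0113). Cpb2, which encodes a carboxypeptidase that shields fibrin from plasmin, fell by 0.62 in KO (adjusted p = 0.0448), from a level that was 0.75 higher in KO sham than in WT sham (adjusted p = 0.0191). The called rises in this list are thus an inhibitor and 2 plasminogen-binding proteins.

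**Figure D4:**
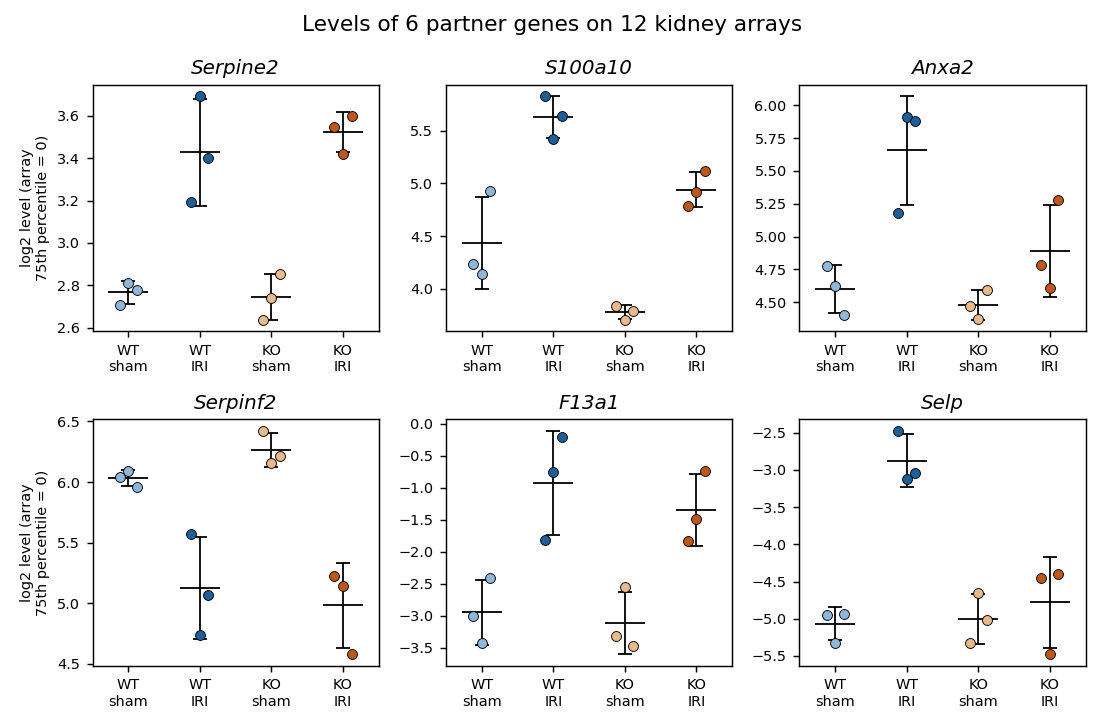
Log2 level (75th percentile of the array = 0) of 6 partner genes on the 12 arrays, by group; each point is 1 kidney, the long bar is the group mean and the whiskers are 1 SD (n = 3). Serpine2, S100a10 and F13a1 are higher after IRI in each genotype, Serpinf2 is lower, and Selp stands apart in WT IRI.

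Of 15 coagulation factors 13 were kept (F9 and F12 were not). In WT 1 rose and 2 fell, in KO 2 rose and 2 fell, and the medians were 0.21 and -0.52. The shares of all genes called in either direction were 12.0% and 6.17%, and their medians were -0.01 and -0.08. F13a1, the catalytic subunit of the fibrin-crosslinking factor XIII, rose in both genotypes, by 2.02 ± 0.45 in WT (adjusted p = 0.0203), against 1.77 ± 0.45 in KO (adjusted p = 0.0461). Its carrier subunit F13b fell by 0.87 in WT (adjusted p = 0.0147) and fell by 1.04 in KO (adjusted p = 0.0100). F8 fell by 1.40 in WT (adjusted p = 0.00410), and F5 fell by 1.37 in KO (adjusted p = 0.00902). Fgg, a fibrinogen chain, rose by 4.28 ± 0.89 in KO (adjusted p = 0.0219) from a KO sham level below that of WT sham (difference -3.36, adjusted p = 0.0438). WT sham Fgg was at 4.18, 4.21 and 7.42, so replicate 3 raised the WT sham mean. The Fgg change in WT was 1.63 ± 0.89 (adjusted p = 0.256). Prothrombin, F2, did not pass in either genotype, with log2 changes of 0.21 and -0.98.

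Of 8 anticoagulant genes 7 were kept (Serpina5 was not). In WT 0 rose and 1 fell, and in KO 1 rose and 4 fell. In either direction 12.0% of all genes were called in WT and 6.17% in KO. Proz, a cofactor that helps inhibit factor X, fell by 1.95 in WT (adjusted p = 0.0135) and fell by 3.24 in KO (adjusted p = 0.00317). In KO, Proc (protein C) fell by 0.91 (adjusted p = 0.0105) and Serpinc1 (antithrombin) fell by 1.22 (adjusted p = 0.0139), while Pros1 (protein S) rose by 0.72 (adjusted p = 0.0332). Serpinc1 started higher in KO sham than in WT sham, by 1.24 (adjusted p = 0.0102). Serpind1 (heparin cofactor II) was called lower in KO IRI than in KO sham (-2.48, adjusted p = 0.0139) and than in WT IRI (-2.17, adjusted p = 0.0430), with 1 of 3 KO IRI arrays well above background. Serpina10, which encodes the inhibitor that works with protein Z, was called lower in KO sham than in WT sham (-5.02 ± 0.73, adjusted p = 0.00519), with 2 of 3 KO sham arrays well above background. Of the 3 other protease-activated receptors limma called 0 after IRI in either genotype; 2 of 3 in WT and 0 of 3 in KO had an unadjusted p under 0.05. F2rl1 stood at 0.87 ± 0.27 in WT (adjusted p = 0.0658), against 0.32 in KO. F2rl2 lay the other way in WT, at -1.54 ± 0.45 (adjusted p = 0.0510) with 2 of 3 WT IRI arrays well above background and no overlap. F2rl2 was called lower in KO sham than in WT sham (-1.73 ± 0.45, adjusted p = 0.0414), with 1 of 3 KO sham arrays well above background.

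Of 11 platelet genes 7 were kept. After IRI 1 of 7 rose in WT, where 5 had an unadjusted p under 0.05, and in KO limma called 0, with 1 at an unadjusted p under 0.05. Limma called 12.0% of all genes in either direction in WT and 6.17% in KO. Selp, which encodes P-selectin of activated platelets and endothelium, rose by 2.19 ± 0.31 in WT (adjusted p = 0.00372) and was 0.22 in KO (adjusted p = 0.737). Against WT, KO had 1 of 7 called lower in sham and 2 of 7 after IRI. The shares of all genes called in either direction were 8.86% and 1.93%. Ppbp, a platelet chemokine gene, was called in both, at -2.03 ± 0.53 in sham (adjusted p = 0.0432, 2 of 3 KO sham arrays well above background) and -2.89 ± 0.53 after IRI (adjusted p = 0.0279). After IRI Selp was lower in KO than in WT (-1.90 ± 0.31, adjusted p = 0.0157), while the difference between the responses, -1.97 ± 0.43, did not pass (adjusted p = 0.227). The summed level of platelet and megakaryocyte markers, 4 kept of 6, was 0.8 to 1.0 in WT sham, 1.8 to 2.6 in WT IRI, 0.5 to 0.7 in KO sham and 0.6 to 1.9 in KO IRI. The summed level of 4 erythrocyte markers was 12.0 to 13.5, 43.6 to 75.4, 16.4 to 22.8 and 14.1 to 37.8 in the same order. The platelet value of 1.9 is KO IRI replicate 3, where Pf4 was at 0.89. The centred mean of the platelet and megakaryocyte markers was -0.47 on that array and -0.73 to -0.18 over KO IRI, against 0.87 to 1.12 in WT IRI. The part of platelets or blood content in the Selp result was not tested.

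For each of the 5 genes whose F test passed, the genes with the most similar pattern were ranked by Pearson r over the 12 arrays, among 16080 genes. These r describe profiles that share the same arrays and groups. F3 was most like Mnat1 (r = 0.96), Cited1 (0.96) and Krt8 (0.95). Plaur was most like Adamts1 (0.99), Il1r2 (0.98) and Hspb1 (0.98), and Plat was most like Cep170 (0.97), Elf3 (0.97) and Sbno2 (0.96). Thbd was nearest Usp36, Nolc1 and Ppp2r1b (each 0.95), and Procr was nearest Ecscr (0.96), Tnfrsf23 (0.95) and Ehbp1l1 (0.94).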

How the data were processed

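Total kidney RNA was labelled with Cy3 and hybridised to 12 one-colour Agilent arrays. Per the file headers, the scanner files hold background-subtracted spot intensities on a linear scale, with positions on mm9. The authors' deposited table holds log2 values (median 5.71) that correlate with the log2 processed intensities at r of at least 0.9995, and the submitters' processing notes name limma; the sources used here do not give its scaling. The log2 processed intensity of each array was set relative to its 75th percentile. Control spots and outlier spots were left out, and spots of a probe were averaged. Probes well above background on at least 3 of 12 arrays were kept (39450 of 56605), and each gene was read from its kept probe with the highest mean. Symbols came from RefSeq (GRCm38.p6) for 32994 probes and from the files for 23611. Groups of 3 arrays were compared in one fit with limma 3.58.1 (R 4.3.3; 8 residual degrees of freedom, two-sided, Benjamini-Hochberg over 25948 genes, threshold 0.05), tested on simulated data. The members, lists and tests were chosen with earlier results of these data known. The 9 genes are always named, listed pathway genes where they passed the threshold (4 largest changes at most per list and comparison) or where Plg, Serpine2, F2 or F2rl1, and the 3 most similar genes per gene whose F test passed. One gene of the fibrinolysis list is not reported here. Alternatives covered background correction, scaling, filters, probe choice, arrays fitted, slide, replicate block, array weights, variance trend and each array left out. The number of arrays limits the precision.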

Additional observations from a re-analysis of the deposited data

How the results depend on the processing

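The number of the 9 genes called in WT IRI against sham was 3. It was 5 with normexp background correction, 5 with a variance trend, 1 with the 6 arrays compared alone, and 2 to 4 when each array was left out. In KO IRI against sham it was 0, and it was 2 with normexp, 2 with a trend, 1 with the 6 arrays, 6 with array weights and 0 to 3 with an array left out. For KO against WT it was 0 in sham kidneys (2 with 6 arrays, 5 with array weights, 0 to 1 with an array left out) and 1 after IRI (0 with 6 arrays, 3 with array weights, 1 to 2 with an array left out). The difference between responses had 0 (1 with array weights, F3 at -0.92, adjusted p = 0.0230, and 0 to 0 with an array left out). Array weights were computed gene by gene, since the REML fit did not converge. Over all genes, the calls were 3106 (417 to 8627 over the alternatives), 1600 (454 to 5923), 2299 (649 to 9576), 500 (35 to 1931) and 18 (4 to 1294).

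Deviations of same-numbered arrays from their group means correlated at -0.266 to 0.151. Differently numbered arrays were not compared in this way, so these values do not show whether replicate numbers pair the arrays. With the replicate block 4 genes were called in WT IRI, with Thbd gained (adjusted p = 0.0483). That setting called 1 in KO IRI, Plaur (adjusted p = 0.0382). Slide as a block is the same fit as the main one, since each slide holds 1 genotype. It could not change a comparison within a genotype, so it is no check of these results.

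Sign changes were in values near 0 that passed no test. Plau in KO IRI was 0.0388 with quantile scaling, 0.0046 with median centring, 0.0412 with the authors' values, and -0.2183 to 0.0567 with an array left out. Vwf in KO IRI was -0.0594 with array weights and -0.0894 to 0.0774 with an array left out. For KO against WT after IRI, F2r was 0.0114 with median centring (-0.38 to 0.17 with an array left out), and Vwf was 0.0554 with median centring, 0.33 as the mean of its probes and 0.12 with array weights (-0.11 to 0.10). The Plat difference between responses was 0.13 with array weights (-0.31 to 0.19), and that of Thbd ran from -0.2477 to 0.0821. With an array left out, Plau ran from -0.0354 to 0.2201 in WT IRI and -0.1048 to 0.0718 in sham, and Procr from -0.2886 to 0.029 in sham. The Vwf value of 0.33 averages probes at -0.01, -0.33 and 1.32, the last of them well above background on 3 of 12 arrays. The cause of the other changes was not tested. No scaling moved the median of all genes by over 0.1 on the log2 scale.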
